A study of Homo sapiens with 22 samples.

Results

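Messenger RNA of 10 genes that restrain or report the cell cycle was followed through 22 RNA-seq libraries of RPTEC, a human renal proximal tubule epithelial line immortalized with hTERT. They were the 7 inhibitors of cyclin-dependent kinases (CDKs) CDKN1A, CDKN1B, CDKN1C, CDKN2A, CDKN2B, CDKN2C and CDKN2D, the retinoblastoma gene RB1, the cyclin gene CCND1 and the lamin gene LMNB1. They were taken by symbol from the deposited table of 36859 genes, all 10 were found, and 9 passed the filter on low values used for testing. The 22 libraries formed 11 groups of 2 replicates, and nothing in the labels said that replicates were separate cultures, so p-values measure the spread between these libraries, which may be technical.

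In 2% serum the groups were untreated wild-type cells (WT), WT given TGF-β (10 ng/mL, 72 h), the SETD2 knockout clones KO1 and KO2, and libraries labelled KO2 rescue. The labels set the other groups in 2% serum at 0 h and give no time for those in 10% serum. TGF-β and time thus cannot be told apart where treated cells are compared with the others. KO1 and KO2 are single CRISPR/Cas9 clones, so that loss of SETD2 and properties of a clone cannot be told apart within either. In 10% serum the groups were Rescue1 and Rescue2, which are clones picked from KO2 cells after lentiviral transduction with full-length SETD2 and blasticidin selection, and WT lines made with vectors for eGFP, SOX2, OCT2 or PRRX1 and selected in bulk with puromycin. All groups carry the hTERT transgene of the parent line. SETD2 encodes the enzyme that trimethylates lysine 36 of histone H3.

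Values are normalized counts, obtained by converting the deposited log2 values back on the reading that they are variance-stabilized counts, with totals of 11674491 to 16758645 per library and about 7600000 to 18700000 reads behind them. A gene counted as called when its log2 change exceeded 1 in either direction and limma's moderated test across 14585 genes put its adjusted p below 0.05. SETD2 mRNA was 1852 and 2061 in WT, 1046 and 1130.0 in KO1, 1049.8 and 1052 in KO2 and 9764 to 10445 in the 4 libraries of Rescue1 and Rescue2. It was 834 and 819.6 in the libraries labelled KO2 rescue, lower than in KO2 (log2 change −0.35, SE 0.068, limma adjusted p = 0.00382), so these libraries are named by their label only. The renal epithelial genes PAX8 (1535 to 6561) and KRT8 (3952 to 25190) were present in every library, as were the proximal tubule genes GGT1 (225 to 1091) and CUBN (13.9 to 333). AQP1 and ANPEP reached 448 and 472, whereas LRP2, SLC34A1 and SLC5A2, which also mark the mature proximal tubule, stayed at or below 2.29, 8.47 and 7.57, and the epithelial cadherin CDH1 was at 0 in 8 libraries. Summed over 14 such markers, WT was at 23454 to 25808, TGF-β-treated cells at 21850 to 21864, KO1 at 13648 to 13770.5, KO2 at 18214 to 19408 and the rescue clones at 28987 to 31226. Of markers of other cell types, CD3E was at 0 in all libraries, PTPRC did not exceed 20.1 and PECAM1 did not exceed 25.1, but the fibroblast marker THY1 ran from 5.19 after TGF-β to 2936 in the SOX2 line. A fibroblast collagen separated the WT replicates, since COL1A1 was 11919 in WT replicate 1 and 532 in replicate 2. Summed over 10 fibroblast, endothelial and immune markers, WT was at 593 and 11954, TGF-β-treated cells at 45122 to 46652, KO1 at 1043 to 1261, KO2 at 4685 to 4932, the rescue clones at 344 to 960 and eGFP cells at 2173 to 2367. The part of these differences in the results below was not tested. For the CDK inhibitors, RB1, CCND1 and LMNB1, values without a library are given where leaving it out ends a call or a pass of the test, or moves a called fold by over 1.5 times. For other single genes the effect of leaving out a library was not examined.

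CDK inhibitors act at the step where a cell commits to copying its DNA. D-type cyclins such as cyclin D1, the product of CCND1, activate CDK4 and CDK6, which phosphorylate the RB protein and release E2F transcription factors. The INK4 proteins (from CDKN2A, CDKN2B, CDKN2C and CDKN2D) bind CDK4 and CDK6, and the CIP/KIP proteins p21, p27 and p57 (from CDKN1A, CDKN1B and CDKN1C) bind cyclin-CDK complexes more broadly. Cells that leave the cycle for good, as in senescence, commonly carry more p16 or p21 and less lamin B1, and in epithelial cells TGF-β is known to raise p15, the product of CDKN2B.

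RefSeq (build GRCh38.p14) holds promoter windows for 8 of the 10 genes, and the 200 bases before a start site are printed for the genes on which the results below turn, with the neighbour MTAP for the locus that carries CDKN2A and CDKN2B. The first CDKN2A start gives the transcript for p14ARF and the second the transcript for p16INK4a. Both were summed in the single deposited CDKN2A value. Capitals mark the GC box GGGCGG on either strand, overlapping copies included. In order, the windows lie at chr9:21995325-21995524 (minus strand), chr9:21974858-21975057 (minus), chr9:22009306-22009505 (minus), chr9:21802436-21802635 (plus), chr6:36678514-36678713 (plus) and chr5:126776936-126777135 (plus).
CDKN2A, p14ARF start: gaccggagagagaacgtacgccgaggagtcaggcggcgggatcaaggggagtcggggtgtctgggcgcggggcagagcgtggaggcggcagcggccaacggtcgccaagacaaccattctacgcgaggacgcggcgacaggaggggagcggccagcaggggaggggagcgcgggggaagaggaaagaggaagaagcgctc
CDKN2A, p16INK4a start: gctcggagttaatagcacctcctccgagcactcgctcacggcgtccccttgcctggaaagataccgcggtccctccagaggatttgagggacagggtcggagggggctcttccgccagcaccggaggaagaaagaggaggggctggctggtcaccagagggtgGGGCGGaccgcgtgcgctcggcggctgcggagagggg
CDKN2B: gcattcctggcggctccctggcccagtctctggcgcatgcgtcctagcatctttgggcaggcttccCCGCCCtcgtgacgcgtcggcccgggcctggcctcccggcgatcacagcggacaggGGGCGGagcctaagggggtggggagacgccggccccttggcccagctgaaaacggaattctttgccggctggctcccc
MTAP: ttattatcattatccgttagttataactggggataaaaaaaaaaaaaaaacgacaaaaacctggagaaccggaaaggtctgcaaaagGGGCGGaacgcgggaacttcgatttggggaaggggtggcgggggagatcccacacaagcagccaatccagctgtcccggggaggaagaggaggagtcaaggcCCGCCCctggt
CDKN1A: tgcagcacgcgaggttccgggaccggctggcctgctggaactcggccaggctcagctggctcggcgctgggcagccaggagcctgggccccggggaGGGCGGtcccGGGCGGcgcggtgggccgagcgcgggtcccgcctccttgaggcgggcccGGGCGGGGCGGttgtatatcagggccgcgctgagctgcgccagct
LMNB1: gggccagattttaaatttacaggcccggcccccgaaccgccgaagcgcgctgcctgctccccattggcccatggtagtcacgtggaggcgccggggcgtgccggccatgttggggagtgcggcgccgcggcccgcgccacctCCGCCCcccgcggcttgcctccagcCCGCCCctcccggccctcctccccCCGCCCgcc

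RefSeq gives LMNB1 a second window, at chr5:126776423-126776622, which held no GC box and is not printed. The GC box was found 4 times in the CDKN1A window, 3 times in the LMNB1 window printed, 2 times each in those of CDKN2B and MTAP, 1 time at the p16INK4a start and not at the p14ARF start. Of 35116 RefSeq promoter windows of this length, 40.1% held at least 1 such box. Neither TATAAA, the TATA box (8.59% of all windows), nor TTTNNCGC, a common form of the E2F motif (4.87%), was found in these 6 windows on either strand. GC content ran from 51.5% in the MTAP window to 77.5% in that of CDKN1A. A match is a description of letters and not a bound site.

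Of the CIP/KIP group, CDKN1A (chr6:36676460-36687337, plus strand, GRCh38), which encodes p21, was the most abundant inhibitor. These are bulk samples, in which fewer cells of a type and less RNA per cell cannot be told apart. Its normalized counts were 8098 and 7359 in WT, 10823 and 10649 after TGF-β, 12318 and 11120.5 in KO1 and, in KO2, 9866 and 9379. Both libraries of each of these 3 groups lay above both WT libraries. The log2 change against WT was 0.48 after TGF-β (SE 0.088, limma adjusted p = 0.0015), 0.60 in KO1 (adjusted p = 6.49e-05) and, in the other clone KO2, 0.32 (adjusted p = 0.0133), in each case under the fold required for a call. KO1 exceeded KO2 by a log2 of 0.28 (SE 0.088, limma adjusted p = 0.0422). The KO2 change did not pass without WT replicate 2 (0.25, adjusted p = 0.109) or KO2 replicate 1 (0.28, adjusted p = 0.0924), and the difference between the clones passed only without KO1 replicate 2 when each of their libraries was left out in turn (log2 0.21 to 0.36).

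In 10% serum CDKN1A was lower in every library than in KO1, KO2 or TGF-β-treated cells, but Rescue2 lay between the WT libraries. It was 7098 and 6877 in Rescue1, 7510.4 and 7428 in Rescue2, 4494 and 4107 in eGFP cells, and between 3355 and 4927 in the SOX2, OCT2 and PRRX1 lines. The rescue clones were below KO2 (log2 change −0.41, SE 0.077, limma adjusted p = 6.5e-04) and above eGFP cells in the same serum (0.75, SE 0.077, adjusted p = 3.49e-06), while eGFP cells were below WT (−0.85, SE 0.088, adjusted p = 5.89e-06). Labelled KO2 rescue, another pair of libraries in 2% serum held 7809.8 and 7439, a log2 of −0.34 against KO2 (SE 0.088, limma adjusted p = 0.0247), and without any 1 of the 4 libraries this did not pass (adjusted p 0.0663 to 0.166).

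CDKN1C (chr11:2883213-2885775, minus strand), an imprinted gene that encodes p57, moved in opposite directions after TGF-β and in the SETD2 knockout clones. It was 160.2 and 151 in WT, 61.4 and 23.4 after TGF-β, 769 and 525 in KO1 and, in KO2, 636 and 747. After TGF-β it was 4.01-fold lower (log2 change −2.00, SE 0.29, limma adjusted p = 2.19e-04), whereas it was 4.06-fold higher in KO1 (2.02, adjusted p = 5.71e-05) and 4.41-fold higher in KO2 (2.14, adjusted p = 5.12e-05). Tested directly, the mean of both clones exceeded the TGF-β-treated cells by a log2 of 4.09 (SE 0.25, limma adjusted p = 7.52e-09). The size depended on which TGF-β-treated library was kept. Without replicate 1 the change against WT was −2.68 and the difference from the clones 4.76, and without replicate 2 they were −1.33 and 3.41, all of them called. KO1 and KO2 differed by −0.12 (95% interval −0.75 to 0.51).

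Every library in 10% serum held more CDKN1C than either WT library. CDKN1C was 1139 and 1003 in Rescue1, 984 and 963 in Rescue2, 1895 and 1669 in eGFP cells and 1324 to 1818 in the 6 libraries of the other WT lines. eGFP cells were 11.4-fold above WT (log2 change 3.51, SE 0.29, limma adjusted p = 6.66e-07), a comparison in which serum, vector and selection cannot be told apart. Against eGFP cells the rescue clones were lower (−0.80, SE 0.25, limma adjusted p = 0.0273), which passed only without Rescue1 replicate 1 when each of the 6 libraries was left out in turn (−0.89 to −0.71 in the other 5 fits, adjusted p 0.0521 to 0.184). Against KO2 the log2 difference of 0.56 did not pass the test (adjusted p = 0.104). The libraries labelled KO2 rescue, at 672 and 707, lay between the KO2 libraries.

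CDKN1B (chr12:12685498-12722369, plus strand), which encodes p27, was listed at 0 in 12 libraries and reached 9.95 in WT replicate 2, and it was not tested. Genes that dividing cells use were also listed near 0 in this table, among them MCM6 at 0 in 15 libraries and PCNA between 0 and 168. A listed 0 can thus be a failed estimate, and no level of p27 mRNA was read from it. The same limit holds for every other gene listed at or near 0, also within the gene lists below.

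Of the INK4 group, CDKN2A (chr9:21967752-21995301, minus strand) set the rescue clones apart. It was 577 and 467 in WT, 642 and 636 after TGF-β, 1001 and 655 in KO1 and, in KO2, 711 and 670.3. In the rescue clones it was 66.0 and 74.7 (Rescue1) and 82.7 and 73.2 (Rescue2), the lowest 4 values of the series. All other libraries in 10% serum, those of the eGFP, SOX2, OCT2 and PRRX1 lines, held between 362 and 476.

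CDKN2A was 9.22-fold lower in the rescue clones than in KO2 (log2 change −3.21, SE 0.16, limma adjusted p = 8.74e-10) and 6.15-fold lower than in eGFP cells (−2.62, SE 0.16, adjusted p = 1.26e-08). In neither comparison can SETD2 be told apart from vector, selection and the picking of clones. Nor can it be told apart from serum against KO2, or from origin in KO2 cells against eGFP cells. KO1 was above WT under the fold for a call (0.64, SE 0.18, limma adjusted p = 0.0103), which did not pass without KO1 replicate 1 (0.34, adjusted p = 0.134) or WT replicate 2 (0.49, adjusted p = 0.0986). The changes in KO2 (0.41, adjusted p = 0.106) and after TGF-β (0.30, adjusted p = 0.316) did not pass the test. The libraries labelled KO2 rescue held 511 and 476, within the range of the WT libraries, with a log2 of −0.48 against KO2 (SE 0.18, limma adjusted p = 0.112).

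CDKN2B (chr9:22002903-22009305, minus strand), next to CDKN2A and similar to it in part of its sequence, so that estimated counts may be shared between them in part, was the inhibitor with the largest rise after TGF-β. It was 172 and 199.6 in WT, 714 and 985 after TGF-β, 412 and 537 in KO1 and, in KO2, 339 and 431, so that no library of the treated or knockout groups reached down to WT. The rise was 4.51-fold after TGF-β (log2 change 2.17, SE 0.35, limma adjusted p = 4.65e-04), 2.53-fold in KO1 (1.34, SE 0.35, adjusted p = 0.00658) and 2.06-fold in KO2 (1.04, SE 0.35, adjusted p = 0.0357). The KO2 call was lost without any 1 of its 4 libraries (log2 0.87 to 1.21, limma adjusted p 0.0635 to 0.19), the KO1 call without KO1 replicate 2 (1.15, adjusted p = 0.0564), and both knockout calls when all libraries were scaled to the same total (0.93 in KO1 and 0.82 in KO2). Knockout and TGF-β-treated cells differed by a log2 of −0.98 (SE 0.30, limma adjusted p = 0.019), which did not pass without TGF-β replicate 2 (−0.75, adjusted p = 0.192) or KO2 replicate 1 (−0.90, adjusted p = 0.0546).

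In the rescue clones CDKN2B was 114 and 78.7 (Rescue1) and 65.2 and 74.1 (Rescue2), which is 4.67-fold below KO2 (log2 change −2.22, SE 0.30, limma adjusted p = 4.02e-05). Against eGFP cells, at 135 and 119, the rescue clones were lower without passing the test (−0.64, 95% interval −1.29 to 0.0058, limma adjusted p = 0.13). The SOX2, OCT2 and PRRX1 lines held 120.5 to 315, and the libraries labelled KO2 rescue held 380.2 and 278, a log2 of −0.23 against KO2 (adjusted p = 0.795).

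MTAP, which encodes an enzyme of methionine salvage and lies beside CDKN2A, followed another order. It was 753 and 551 in WT, 984 and 1201 after TGF-β, 252 and 309.7 in KO1, 343 and 387 in KO2, 814 and 884 in Rescue1 and 1120.0 and 1003 in Rescue2. Where CDKN2A and CDKN2B were lower in the rescue clones than in KO2, MTAP was higher (log2 change 1.38, SE 0.13, limma adjusted p = 1.29e-06), and against eGFP cells it differed by 0.29 (adjusted p = 0.115). It was called lower in KO1 against WT (−1.20, adjusted p = 1.51e-05). ELAVL2, farther along the chromosome, was listed at 0 in 16 libraries and did not exceed 29.5 in any. Of the 2 tested neighbours, it was the 1 called higher in KO1 against WT, and its values at or near 0 can be failed estimates. CDKN2B-AS1 and DMRTA1 were not analysed here.

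**Figure D1:**
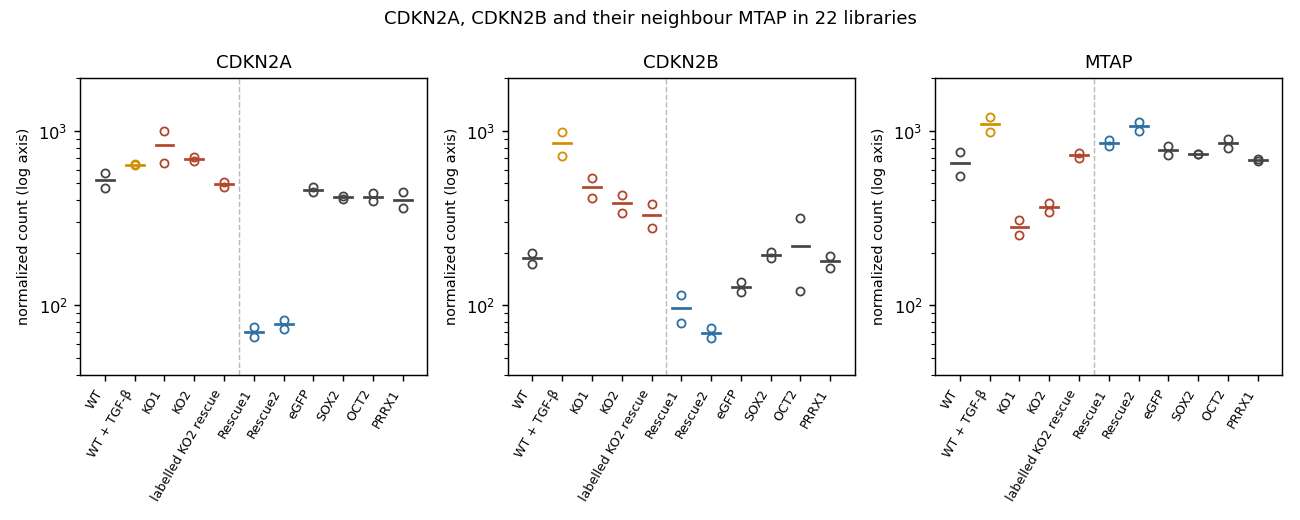
Normalized counts of CDKN2A, CDKN2B and MTAP (log axes) in each library of 11 groups, with circles for libraries, bars for group means and a dashed line between 2% serum on the left and 10% on the right. CDKN2A fell to 66.0 to 82.7 in the 4 rescue libraries, in which MTAP was at 814 to 1120.0.

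CDKN2D (chr19:10566460-10569059, minus strand), which encodes p19, was low and separated the clones. It was 198 and 204 in WT, 156 and 160.2 after TGF-β, 215 and 172 in KO1 but, in KO2, 74.6 and 84.2. KO2 was 2.51-fold below WT (log2 change −1.33, SE 0.26, limma adjusted p = 0.00125), KO1 was not (−0.06, adjusted p = 0.882), and the direct difference of KO1 minus KO2 was 1.27 (SE 0.26, adjusted p = 0.00418). The rescue clones, at 115 to 160.1, were above KO2 (0.77, limma adjusted p = 0.017, under the fold for a call, and 0.0522 to 0.128 without either KO2 library or Rescue2 replicate 1) and 2.63-fold above eGFP cells (1.40, adjusted p = 2.84e-04). eGFP cells, at 41.4 and 62.4, were 3.89-fold below WT (−1.96, limma adjusted p = 5.99e-05). The SOX2, OCT2 and PRRX1 lines held 61.6 to 94.9, and the libraries labelled KO2 rescue held 95.8 and 107 (log2 change against KO2 0.35, adjusted p = 0.512).

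CDKN2C (chr1:50960745-50974634, plus strand), which encodes p18, was listed at 0 in 9 libraries and reached at most 15.7, in Rescue2 replicate 1. It passed the filter through 2 libraries only, no change in it passed the test, and no direction is given for it.

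CCND1 (chr11:69641156-69654474, plus strand) rose after TGF-β and in 1 clone. It was 6803 and 3852 in WT, 18682 and 17486 after TGF-β, 14380.0 and 13694 in KO1 and, in KO2, 5655 and 5465, between the WT libraries. The level was 3.53-fold higher after TGF-β (log2 change 1.82, SE 0.16, limma adjusted p = 2.46e-06) and 2.74-fold higher in KO1 (1.45, adjusted p = 4.22e-06). In KO2 the log2 change was 0.12 (95% interval −0.23 to 0.47), and KO1 exceeded KO2 by 1.34 (SE 0.16, limma adjusted p = 5.79e-05). WT replicate 1, the library with more COL1A1, also held more CCND1. Without it the changes were 2.23 after TGF-β, 1.86 in KO1 and 0.53 in KO2, and without replicate 2 they were 1.41, 1.04 and −0.29.

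The rescue clones differed from each other, with CCND1 at 7754 and 8175 in Rescue1 and 11324 and 11527 in Rescue2. Their mean was above KO2 (log2 change 0.78, SE 0.14, limma adjusted p = 5.24e-04) and 2.26-fold above eGFP cells (1.17, adjusted p = 1.73e-05), which held 4325 and 4130.1. The SOX2, OCT2 and PRRX1 lines stayed within 3944 to 4299. The libraries labelled KO2 rescue, at 10976 and 10960.2, exceeded KO2 by a log2 of 0.98 (SE 0.16, limma adjusted p = 9.47e-04), just under the fold for a call.

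RB1 (chr13:48303744-48599436, plus strand) changed least among the members with more than 100 counts. It was 2039 and 1834 in WT, 1625 and 1867 after TGF-β, 2132 and 2641 in KO1 and, in KO2, 2164 and 2268. The libraries labelled KO2 rescue held 1562 and 1711, and all libraries in 10% serum lay between 2229 and 2591. No change was called in any of the 12 comparisons. The log2 change was 0.30 in KO1 against WT (SE 0.10, limma adjusted p = 0.03), 0.40 in the knockout clones against TGF-β-treated cells (adjusted p = 0.00221) and −0.44 in the libraries labelled KO2 rescue against KO2 (adjusted p = 0.0111). In eGFP cells against WT it was 0.34 (SE 0.10, limma adjusted p = 0.0224). None of these held without each library. That of eGFP cells did not pass without WT replicate 2 (0.26) or eGFP replicate 1 (0.25). The KO1 change did not pass without WT replicate 2 (0.22, adjusted p = 0.186) or KO1 replicate 2 (0.14, adjusted p = 0.328), that of the clones against TGF-β without TGF-β replicate 1 (0.30, adjusted p = 0.0599) and that of the libraries labelled KO2 rescue without their replicate 1 (−0.37, adjusted p = 0.109) or KO2 replicate 2 (−0.40, adjusted p = 0.0821). The sign in KO1 turned to −0.11 when all libraries were scaled to the same total.

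LMNB1 (chr5:126776623-126837020, plus strand), which encodes lamin B1 of the nuclear lamina, fell after TGF-β and in both clones. It was 585 and 638 in WT, 132 and 74.0 after TGF-β, 40.1 and 74.2 in KO1 and, in KO2, 124 and 193, so that these groups did not overlap with WT. The log2 change was −2.62 after TGF-β (6.13-fold lower, SE 0.42, limma adjusted p = 4.81e-04), −3.46 in KO1 (adjusted p = 1.02e-05) and −1.97 in KO2 (3.93-fold lower, adjusted p = 0.00224). KO1 lay below KO2 (log2 difference −1.49, SE 0.42, limma adjusted p = 0.0264), a call that was lost without KO1 replicate 1 (−1.05) or KO2 replicate 2 (−1.17). The mean of both clones did not pass the test against TGF-β-treated cells (−0.10, 95% interval −0.88 to 0.68). The group means of the clones, 57.2 in KO1 and 159 in KO2, lay on either side of 103 after TGF-β.

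In Rescue1 (406 and 515) and Rescue2 (639.5 and 502) LMNB1 was 3.27-fold above KO2 (log2 change 1.71, SE 0.37, limma adjusted p = 0.00199). The rescue clones differed from eGFP cells, at 477 and 506, by 0.05 (95% interval −0.73 to 0.83). The libraries labelled KO2 rescue were apart from each other, at 318 and 116, and their change against KO2 of 0.31 did not pass the test (limma adjusted p = 0.764). The SOX2, OCT2 and PRRX1 lines held 322 to 619.7.

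**Figure D2:**
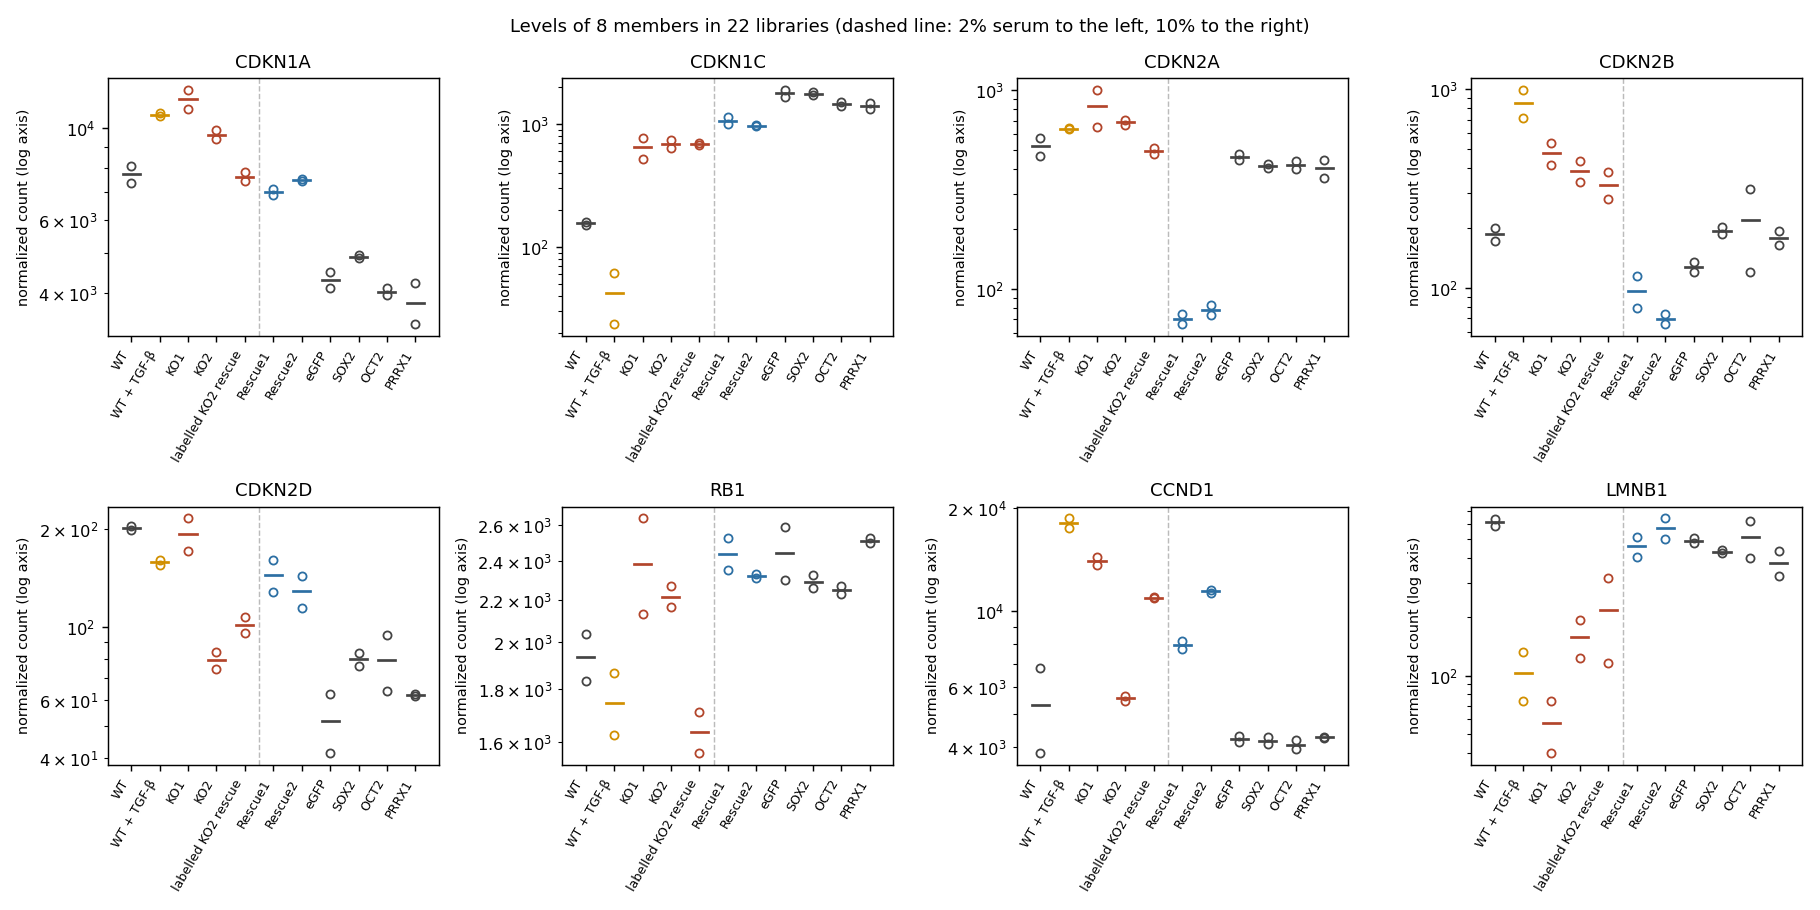
Normalized counts (log axes with separate ranges) of 8 genes in each of 22 libraries, with circles for libraries, bars for means of 2 and a dashed line between 2% and 10% serum. CDKN1C was lowest after TGF-β (61.4 and 23.4), CDKN2A in the rescue clones and LMNB1 in KO1.

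Compared per kilobase of the canonical transcript, so that genes can be set side by side, the mean level in WT was 3651 for CDKN1A, 1257 for CCND1, 534 for CDKN2A, 406 for RB1, 212 for LMNB1, 141 for CDKN2D, 87.8 for CDKN1C and 48.3 for CDKN2B. Among the inhibitors CDKN1A thus held the first place in WT, and it did so in the other 10 groups as well, with 1787 in the PRRX1 line as its lowest group mean. CDKN2B stayed below CDKN2A on this scale in KO2 (100 against 706) and after TGF-β (221 against 653). In eGFP cells the second place went to CDKN1C, at 1005 per kilobase against 470 for CDKN2A.

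Read by comparison, 4 of the 9 tested genes were called after TGF-β, where 7.84% of all 14585 genes were called (3.58% higher and 4.26% lower). CDKN2B and CCND1 were higher and CDKN1C and LMNB1 lower. In KO1 against WT 4 of 9 were called, beside 25.0% of all genes (12.0% higher and 13.1% lower), with CDKN1C, CDKN2B and CCND1 higher and LMNB1 lower. In KO2 against WT 4 of 9 were called, beside 16.3% of all genes (9.02% higher and 7.29% lower), with CDKN1C and CDKN2B higher and CDKN2D and LMNB1 lower. These 3 comparisons share the WT libraries.

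The direct test of KO1 against KO2 called CDKN2D and CCND1 higher and LMNB1 lower in KO1, beside 6.97% of all genes (2.48% higher and 4.49% lower). The mean of both knockout clones against TGF-β-treated cells gave CDKN1C as higher and CCND1 as lower (−1.03, and −0.99 without TGF-β replicate 1, under the fold for a call), beside 20.2% of all genes (10.3% higher and 9.83% lower). For CCND1 the group means were 14037 in KO1, 5560 in KO2 and 18084 after TGF-β, and neither clone was tested alone against TGF-β. In the rescue clones against KO2, 3 of 9 were called, beside 17.5% of all genes (7.84% higher and 9.65% lower), namely LMNB1 higher and CDKN2A and CDKN2B lower. SETD2, serum, vector, selection and the picking of clones change together there and cannot be told apart. Against eGFP cells in the same serum the rescue clones gave CDKN2D and CCND1 higher and CDKN2A lower, beside 13.1% of all genes (6.47% higher and 6.66% lower). SETD2, origin from KO2, vector, selection drug and the picking of clones differ there and cannot be told apart.

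In eGFP cells against WT CDKN1C was called higher and CDKN2D lower, beside 12.7% of all genes (6.49% higher and 6.24% lower). By limma 0 of 9 were called in the libraries labelled KO2 rescue against KO2, where 4.17% of all genes were called and 4 of the 9 had an unadjusted p under 0.05. In the SOX2, OCT2 and PRRX1 lines against eGFP cells limma called 0 of 9 each, beside 0.0206%, 0.0343% and 0.0411% of all genes, and 1 of 9 had an unadjusted p under 0.05 in each line. When each comparison was fitted on its own libraries, with 2 against 2, the 4 calls after TGF-β were lost (limma adjusted p 0.069 to 0.19), as were the 3 between KO1 and KO2.

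**Figure D3:**
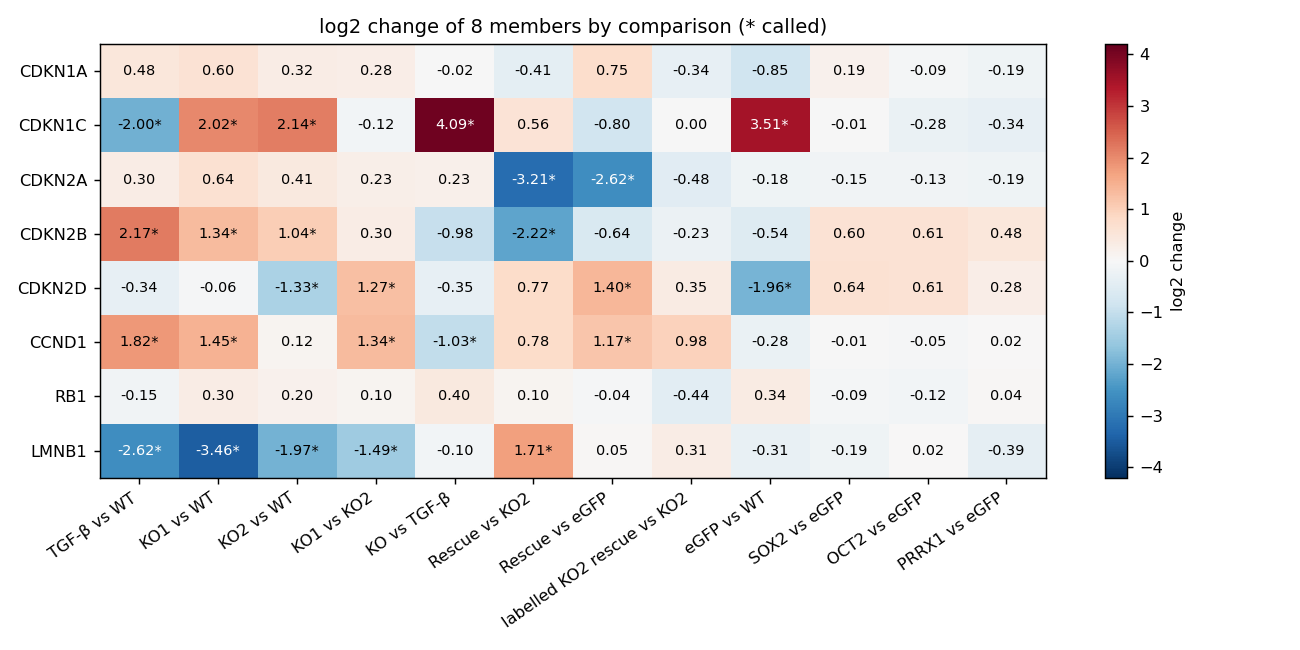
Color scale of log2 changes for 8 genes (rows) in 12 comparisons (columns), first group minus second, with an asterisk on each change called. CDKN1C ran from −2.00 after TGF-β to 4.09 in the knockout clones against TGF-β-treated cells, and the columns of the SOX2, OCT2 and PRRX1 lines hold no call.

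Proliferation genes were lower, as LMNB1 was, after TGF-β and in both clones. Of 19 tested proliferation and E2F target genes 11 were called lower after TGF-β, 16 in KO1 and 15 in KO2, 0 were called higher, and the median log2 changes were −1.90, −3.62 and −2.45 beside medians of all genes of 0 after TGF-β, 0 in KO1 and 0.003 in KO2. MKI67, the gene for the Ki-67 antigen of dividing cells, was 4088 and 6581 in WT, 959 and 859 after TGF-β, 202 and 67.2 in KO1 and, in KO2, 264 and 1105. Its log2 change was −2.51 (SE 0.52, limma adjusted p = 0.00352) after TGF-β, −5.46 (adjusted p = 8.56e-07) in KO1 and −3.26 (adjusted p = 2.11e-04) in KO2. AURKB, a mitotic kinase, was among the 4 largest falls after TGF-β (−2.58), with TOP2A (−3.04), MKI67 and CDC20 (−2.18). 

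The summed level of the 20 proliferation genes was 18336 to 25343 in WT, 5908 to 6212 after TGF-β, 3256 to 3581 in KO1, 5009 to 6211 in KO2 and 18354 to 19743 in the rescue clones. The eGFP, SOX2, OCT2 and PRRX1 lines held 7994 to 10903, below WT, while their LMNB1 was 322 to 619.7. In the rescue clones against KO2 15 of 19 proliferation genes were called higher and 0 lower, with a median log2 change of 2.00. In eGFP cells, where LMNB1 did not pass the test against WT (−0.31, limma adjusted p = 0.654), 7 of 19 were called lower than in WT (median log2 change −1.51). Against eGFP cells the rescue clones had 7 of 19 called higher and 1 lower (median 1.05), with LMNB1 at 0.05 (adjusted p = 0.946). The libraries labelled KO2 rescue held a sum of 7354 to 7910, and 1 of 19 was called higher than in KO2 (CCNB1, 1.10). The part of these genes in the LMNB1 result was not tested.

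**Figure D4:**
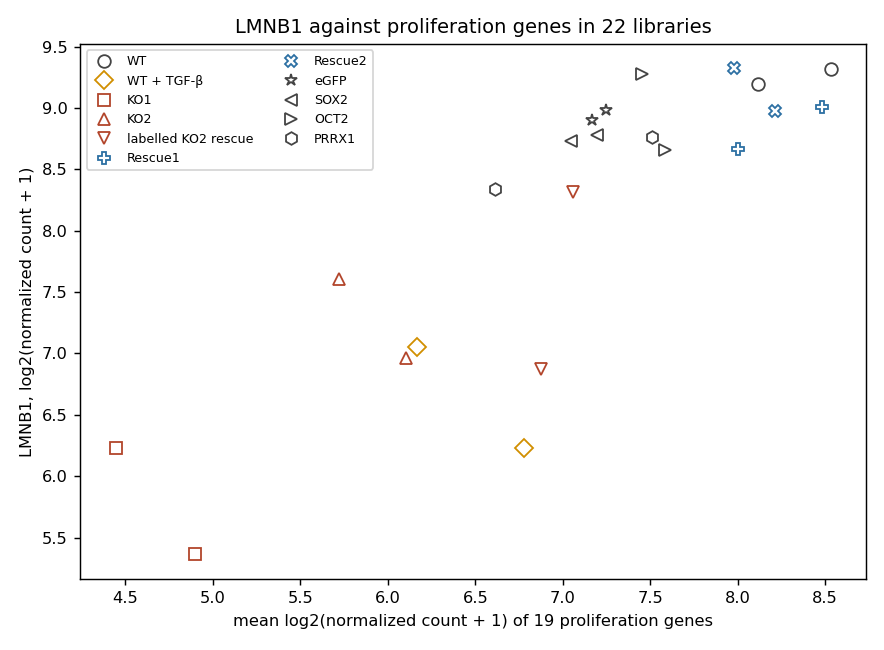
LMNB1 (vertical axis) against the mean of 19 proliferation genes (horizontal axis), both as log2(normalized count + 1), with 1 symbol per library and a marker shape per group. Libraries of KO1, KO2 and TGF-β-treated cells lie at lower left and those of WT and the rescue clones at upper right.

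Of 17 tested cyclin, CDK and RB pathway genes 1 was called lower after TGF-β (RBL1, which encodes the RB relative p107, −1.05), 7 in KO1 and 5 in KO2, and 0 were called higher. In the knockout clones the cyclin gene CCNE2 was called in both (−2.94 in KO1 and −3.77 in KO2), as was RBL1 (−2.28 and −1.67) and CDC25A, which encodes a CDK-activating phosphatase (−1.68 and −2.08). CCNA2 was listed at 0 in both KO1 libraries against a mean of 879 in WT, and this 0 can be a failed estimate. In the rescue clones against KO2 6 of 17 were called higher, led by CCNE2 (4.51) and CDC25A (2.48).

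Of 15 tested secretory factors that senescent cells can release, 6 were called higher and 1 lower after TGF-β, whereas KO1 had 8 higher and 1 lower, and KO2 8 higher and 3 lower. IL1A, an inflammatory cytokine gene (log2 change 7.43 in KO1 and 6.42 in KO2), and GDF15, a stress-induced cytokine gene (6.67 and 4.42), rose in both clones. IL1B was listed at 0 and 5.50 in WT, values that can be failed estimates, and had a mean of 28750.1 in KO1 and 3325 in KO2. The list went the other way in the rescue clones against KO2 (2 higher and 9 lower) and in the libraries labelled KO2 rescue (1 higher and 9 lower), in which 0 of the 9 tested members were called. It was also higher in eGFP cells against WT, with 7 called higher and 2 lower.

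Of 9 tested genes of nuclear proteins and lysosomal enzymes linked to senescence, 3 were called lower after TGF-β, and 2 higher and 1 lower in each clone. As shares of all genes called, 7.84% after TGF-β, 25.0% in KO1 and 16.3% in KO2 stand beside these counts and those of the lists above. For the rescue clones the shares were 7.84% higher and 9.65% lower against KO2, and 6.47% and 6.66% against eGFP cells. They were 6.49% higher and 6.24% lower for eGFP cells against WT. In the libraries labelled KO2 rescue 4.17% of all genes were called against KO2. HMGB2, which encodes a chromatin protein of dividing cells, fell in all 3 comparisons (−2.64 after TGF-β, −4.48 in KO1 and −2.94 in KO2), and FUCA1, which encodes the lysosomal enzyme fucosidase, rose in both clones (3.84 and 2.54).

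**Figure D5:**
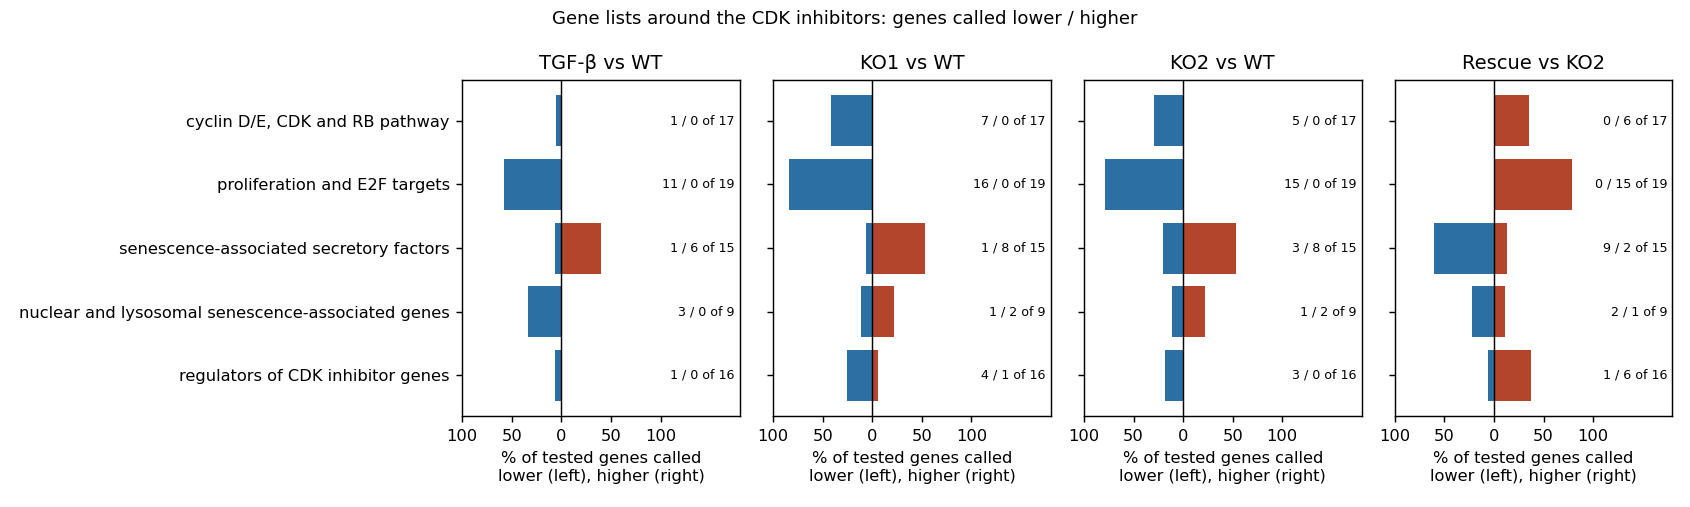
Percent of the tested genes of 5 lists (rows) called lower (left of 0, blue) or higher (right of 0, red) in 4 comparisons, with the counts lower / higher printed at the right. The proliferation list reached 16 of 19 lower in KO1 and 15 of 19 higher in the rescue clones against KO2.

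By the Pearson correlation of log2 levels over the 11 group means, the genes most like LMNB1 were CENPU, which encodes a centromere protein (r = 0.98), MND1 (0.977) and NMT2 (0.972). Those most like CDKN2A were HHIPL1 (0.975), ARMCX2 (0.973) and ARMCX4 (0.964), and those most like CDKN1C were TAGLN3 (0.984), CABLES1 (0.978) and HSPD1P11 (0.977). CDKN1A was followed by GPR137 (0.976), HAGH (0.974) and GMPPB (0.971), CDKN2B by CNPY2 (0.953), ENSG00000265690 (0.949) and ACADVL (0.949), and CCND1 by BCL2L2 (0.974), LPGAT1 (0.964) and WNT5B (0.953). CDKN2D was most like SNU13 (0.97), MARS1 (0.959) and LIG3 (0.952), RB1 like CNOT6L (0.938), SRGAP2D (0.921) and PIANP (0.919), and CDKN2C, with its few counts, like CMC1 (0.93), LETMD1 (0.914) and EFR3A (0.897). These are the highest of 13828 values each, over 11 points that share culture conditions, and describe likeness only.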

How the data were processed

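Poly(A) RNA-seq of 22 libraries was analysed. Per the labels and methods, the authors ran salmon 1.9.0 against the GRCh38 cDNA set of Ensembl 94, followed by DESeq2 1.26.0. They deposited log2 values for 36859 genes and 22 libraries. The transformation is not given in the sources used here. All 22 libraries shared 11.32 as their lowest value (highest 21.28), the form of a variance-stabilized count, and the values were converted back on that reading to normalized counts, in which the shared minimum is 0. Whole reads were not recovered. Symbols and positions came from GENCODE release 44 (33878 genes matched).

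limma 3.58.1 (R 4.3.3 with data.table, version 1.17.8), with a trend of variance on expression, was fitted to log2(normalized count + 1), which understates changes of low genes. A single fit held the 22 libraries and gave each group its own mean. The 14585 genes that reached 10 normalized counts in 2 or more libraries were tested, and p-values were adjusted by Benjamini-Hochberg. Calls required a log2 change beyond 1 in either direction at an adjusted p below 0.05. The fit was tested on simulated data. Python 3.11.15, numpy 2.4.6, pandas 2.3.3 and matplotlib 3.10.9 handled tables and plots. Members and lists were chosen with earlier results of these data known. All members, at most the 4 largest called changes of each list, MKI67, SETD2, the neighbours of CDKN2A and CDKN1C and the 3 genes most like each tested member are named, except for some genes and a list that are not reported here. Alternatives changed the pseudocount, filter, scaling, libraries fitted and replicate block.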

Additional observations from a re-analysis of the deposited data

Results flagged for a closer look

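KO1 and KO2 differed from each other in 3 of the 9 tested genes by the direct test between the clones (limma, adjusted p under 0.05), beside 6.97% of all genes called. All 3 calls were lost when the comparison was fitted on its own 4 libraries, and that of LMNB1 also without KO1 replicate 1 (−1.05) or KO2 replicate 2 (−1.17). CDKN2D was higher in KO1 than in KO2 by a log2 of 1.27 and CCND1 by 1.34, while LMNB1 was lower in KO1 (log2 difference −1.49). Both libraries of KO1 lay on the same side of both libraries of KO2 for each of these genes. The genes were picked by the test on these same libraries, so this adds no support.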

How the results depend on the processing

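Low counts, duplicates and 1 shared spread limit these results. CDKN1B and CDKN2C are too low to compare, and WT-based values of CCND1 depend on which WT library is kept. Counts of called members and of all called genes (given as members, then genes) moved as follows; the cause was not tested unless stated. With each comparison fitted on its own libraries, which leaves 2 residual degrees of freedom where 2 groups are compared, counts were 0 and 0 for TGF-β against WT, 0 and 1 for KO1 against KO2 and 1 and 715 for eGFP against WT, all genes called in KO1 were 1912, and the SOX2, OCT2 and PRRX1 lines had 0 genes each (0 members in the shared fit as well). With the deposited log2 values as they are, which compress low values by construction, counts were 1 and 31 for TGF-β, 0 and 178 for KO1, 0 and 94 for KO2, 0 and 23 for KO1 against KO2, 0 and 134 for the knockout clones against TGF-β, 0 and 62 for the rescue clones against KO2, 0 and 35 for them against eGFP, 0 and 36 for eGFP against WT, 35 genes for the libraries labelled KO2 rescue and 0 genes for the SOX2, OCT2 and PRRX1 lines.

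Scaling every library to the same total moved the median log2 change of all genes by −0.2 after TGF-β, −0.397 in KO1, −0.207 in KO2, −0.207 in KO1 against KO2 and 0.261 in the rescue clones against KO2. Genes called higher and lower became 357 and 937 after TGF-β (522 and 621 before), 1150 and 3008 in KO1 (1744 and 1909), 1069 and 1521 in KO2 (1315 and 1063), 257 and 890 in KO1 against KO2 (361 and 655) and 1861 and 1021 in the rescue clones against KO2 (1143 and 1408). Members called became 5 in the rescue clones against KO2, where CDKN2D (1.07) and CCND1 (1.08) were added, and 1 in the libraries labelled KO2 rescue (CCND1, 1.05), and 6 genes were called for SOX2. RB1 turned to −0.11 in KO1, −0.030 in KO2, −0.084 in KO1 against KO2 and 0.075 in the rescue clones against eGFP, CCND1 to −0.11 in KO2, and CDKN1C to 0.067 in the libraries labelled KO2 rescue. Under quantile normalization CDKN2C (−0.064) and CCND1 (−0.027) turned in KO2, RB1 in the rescue clones against eGFP (0.039), and CDKN1C in the libraries labelled KO2 rescue (0.039) and in SOX2 (0.0016), and 1 member was called in the libraries labelled KO2 rescue. A pseudocount of 0.5 gave 7 genes for SOX2 and turned CDKN2C in the libraries labelled KO2 rescue (−0.11). A pseudocount of 5 gave 3 genes for OCT2 and turned CDKN2C in the rescue clones against KO2 (0.000918). Without a filter on low counts CDKN1B, at 8.95 counts or fewer in KO2, was tested and was the 1 member called in the libraries labelled KO2 rescue (−2.89), where both libraries are listed at 0, and 16, 14 and 18 genes were called for SOX2, OCT2 and PRRX1. With a mean of at least 50 counts, 1942 genes were called in the knockout clones against TGF-β and 3 each for OCT2 and PRRX1, with fewer genes tested.

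With 1 library left out at a time, where a group left with 1 library is assumed to vary like the others, genes called for TGF-β against WT ranged from 739 to 1308, genes called for KO1 against KO2 ranged from 642 to 1745, members called for the libraries labelled KO2 rescue ranged from 0 to 1, genes called for SOX2 ranged from 7 to 36, genes called for OCT2 ranged from 3 to 37, genes called for PRRX1 ranged from 7 to 41. The fewest genes for TGF-β came without WT replicate 2, and for KO1 against KO2 the count moved without KO1 replicate 1 or KO2 replicate 2. Directions that turned in at least 1 such fit, none of them a called change, were those of CDKN2D (−0.23 to 0.10) in KO1 against WT, CDKN2C (−0.65 to 1.65) and CCND1 (−0.29 to 0.53) in KO2 against WT, CDKN2A (−0.075 to 0.54), CDKN1C (−0.39 to 0.16) and RB1 (−0.055 to 0.25) in KO1 against KO2, LMNB1 (−0.51 to 0.31) and CDKN1A (−0.054 to 0.020) in the knockout clones against TGF-β, CDKN2C (−1.65 to 0.39) in the rescue clones against KO2, LMNB1 (−0.037 to 0.14) and RB1 (−0.12 to 0.048) in the rescue clones against eGFP, LMNB1 (−0.41 to 1.03), CDKN1C (−0.12 to 0.12) and CDKN2C (−1.65 to 1.98) in the libraries labelled KO2 rescue, CCND1 (−0.69 to 0.13) in eGFP against WT, CDKN1C (−0.10 to 0.085), CCND1 (−0.050 to 0.020) and CDKN2C (−0.30 to 1.38) in SOX2, LMNB1 (−0.29 to 0.33) and CDKN2B (−0.076 to 1.30) in OCT2, CDKN2C (−1.31 to 0.37), CDKN2D (−0.011 to 0.57), RB1 (−0.045 to 0.13) and CCND1 (−0.018 to 0.049) in PRRX1.

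Replicate numbers were shared between groups, but deviations of same-numbered libraries did not correlate (−0.0823 to 0.0475 over 55 pairs of groups), so the numbers do not pair the libraries. A fit with a replicate block called 4 members after TGF-β and in each knockout clone and 1116, 3643 and 2356 genes, against 1143, 3653 and 2378 without it. Under the settings other than leaving out 1 library at a time, 906 values of single members kept their direction and their side of the threshold, 36 lost a call, 5 gained one and 13 turned.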

Other observations

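Among 16 tested regulators of CDK inhibitor genes, 1 was called lower after TGF-β (EZH2, a Polycomb methyltransferase, log2 change −1.07), 1 higher and 4 lower in KO1, and 0 higher and 3 lower in KO2. Of all genes, 7.84%, 25.0% and 16.3% were called in these comparisons, so that the shares of the list in the clones lay near the background. MYC, a growth-promoting transcription factor, fell in both clones (−2.58 in KO1 and −3.56 in KO2), as did EZH2 (−1.44 and −1.68), and SMAD3, a transducer of TGF-β signals, was higher in KO1 (1.36). ID1 had a mean of 85.3 normalized counts in WT and 57.3 after TGF-β, but was listed at 0 in both KO1 libraries, which can be a failed estimate. In the rescue clones against KO2, 6 of 16 were called higher and 1 lower, beside 7.84% and 9.65% of all genes, with MYC at 4.46. That comparison also sets 10% serum against 2%. Against eGFP cells in the same serum 0 were called higher and 3 lower, beside 6.47% and 6.66% of all genes. In eGFP cells against WT 5 were called higher and 0 lower, beside 6.49% and 6.24%.

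Of the neighbours of CDKN1C on chromosome 11, 4 were tested, and 2 were called higher in each knockout clone. In the rescue clones 0 were called higher and 3 lower against KO2, where serum differs, and 1 higher and 1 lower against eGFP cells. CDKN1C itself differed by 0.56 against KO2 (limma adjusted p = 0.104). Of all genes, 12.0% were called higher in KO1 and 9.02% in KO2. For the rescue clones the shares were 7.84% higher and 9.65% lower against KO2, and 6.47% and 6.66% against eGFP cells. The 4 genes are too few to set against these shares. IGF2, an imprinted growth factor gene, had group means of 0.4 in WT, 1.3 after TGF-β, 5576 in KO1, 2703 in KO2 and 4399 in eGFP cells. SLC22A18 was higher in KO1 (2.16, SE 0.43, limma adjusted p = 9.38e-04) and KO2 (1.84, adjusted p = 0.00422), but in eGFP cells, where CDKN1C was highest, its change of −0.51 did not pass the test (adjusted p = 0.442). KCNQ1 was called lower after TGF-β, where it was listed at a mean of 0 against 10.3 in WT. Values of KCNQ1 and IGF2 at or near 0 can be failed estimates. KCNQ1OT1, PHLDA2 and H19 were not analysed here.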
